A study of Mus musculus with 3 samples.

Results

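Checkpoint ligands and T cell costimulators are surface or secreted proteins through which one cell signals to checkpoint receptors of T cells or macrophages. Here they are the 10 genes Cd274, Pdcd1lg2, Cd80, Cd86, Icosl, Vtcn1, Pvr, Lgals9, Cd276 and Cd47, taken by name, with all 12 array probes whose transcript accession belongs to them. The array holds 36799 genes and transcripts in all. Their RNA was measured in primary cultures of MMTV-PyMT mouse mammary tumors, in which the MMTV promoter drives the polyoma middle T oncogene. Cultures of tumors 811a, 812a and 815a were grown in DMEM F12 with 5% FBS, cholera toxin, insulin and EGF, and each tumor gave a culture treated with RANKL (RL) for 24 h and an untreated control culture. The labels give the RL dose as 1000 µg/mL, while the methods state a lower one. The labels give no strain, age or RANK genotype for these tumors.

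Each tumor had its own Agilent array, on which the RNA of the RL culture and that of the control culture carried separate dyes, so that 3 arrays gave 6 channels. RL was labeled with Cy3 for tumors 811a and 815a and with Cy5 for tumor 812a. The arrays shared 1 slide and 1 scan. A level below is the normalized log2 intensity of 1 probe in 1 channel, and a change is the log2 ratio of RL over control on 1 array or its mean over the 3 tumors. Whether a spot was well above background is the scanner software's own call, made for 55.6% to 57.2% of the probe spots of a channel, and a gene was tested if a probe had it in all 3 control or all 3 RL channels. Levels of different probes are not on a common scale. Only 3 arrays were measured, which limits the precision of every value.

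As background, T cells need a costimulatory signal besides their antigen receptor, and the same ligand families also deliver inhibitory signals that end a response. CD80 and CD86 on antigen-presenting cells bind the activating receptor CD28 and the inhibitory receptor CTLA4, and PD-L1 and PD-L2 bind the inhibitory receptor PD-1. CD47 works on macrophages instead, where it binds SIRPα and restrains phagocytosis. Many tumor cells carry PD-L1, B7-H3 or CD47 themselves, whereas CD80 and CD86 are best known from dendritic cells, macrophages and B cells. RL activates NF-κB through its receptor RANK.

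Transcripts of 8 of the 10 genes were well above background in all 6 channels, and Pdcd1lg2 and Cd86 were not. Cd47 had the highest mean change of the 8, at 0.48, and it was higher with RL in each of the 3 tumors, except when each array was centered on its median. The mean changes of the others lay between −0.06 for Vtcn1 and 0.18 for Cd80. None of the 8 genes passed an adjusted p of 0.05 in limma, where 6 of all 21743 genes and transcripts tested did (0.0276%). At an unadjusted p under 0.05, limma put 1 of the 8, Cd47, higher with RL, against 784 of all those tested (3.61%). A rank product put 0 of the 8 past a proportion of false positives of 0.05, against 87 of the 21721 genes with a value on each array. The change was above 0 in all 3 tumors for Icosl, Pvr and Cd47, that is 3 of 8, against 14.2% of all genes tested. It was below 0 in all 3 for Vtcn1, 1 of 8, against 13.3% of all. These genes and the lists below were chosen with earlier results of these data known, so shares beside all genes are descriptions. A common sign over the 3 tumors depended on the processing. Centering each array on its median ended it for every gene named below that had one, except Vtcn1 and Traf1. This setting moved the gene lists in the same directions, though by unlike amounts. Their medians went downward in tumors 811a and 815a and upward in tumor 812a, the array with RL in Cy5. The epithelial medians, for example, became −0.53, 0.50 and −0.69 in tumors 811a, 812a and 815a. The dendritic medians moved less, from −0.02, 0.08 and 0.07 to −0.15, 0.16 and 0.02. A sign lost in this setting is therefore not specific to a gene. Icosl also lost its common sign with the processed signals of the scanner software. Pvr lost it there, without spatial loess and in the authors' table of log2 ratios, and Vtcn1 in these 3 settings and without background correction. The median change of the 8 genes was 0.06, and that of all genes tested was −0.00068. With 3 tumors a sign-flip permutation test cannot give a two-sided p under 0.25. Fewer cells of a type and less RNA per cell cannot be told apart in RNA from whole cultures.

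**Figure D1:**
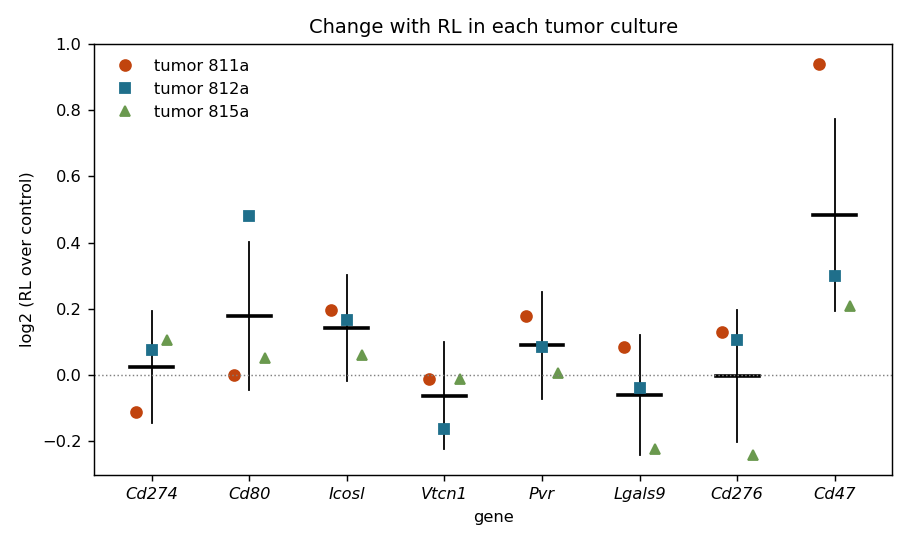
The log2 ratio of RL over control (vertical axis) is plotted for the 8 genes well above background, with 1 symbol per tumor, the mean of 3 tumors as a thick bar and its 95% confidence interval from limma as a thin line. Cd47 is the gene whose interval, from 0.19 to 0.77, lies above 0, and tumor 811a has its highest value, 0.94.

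Cd47, the ligand of SIRPα on macrophages, was read by a pair of probes for the same transcript, NM_010581. The brighter probe had a control level of 12.38 in tumor 811a, 12.63 in tumor 812a and 13.28 in tumor 815a. With RL its level was 13.32 in tumor 811a, 12.94 in tumor 812a and 13.49 in tumor 815a. Levels with RL were thus above the control level of the same tumor each time, although the control of tumor 815a was above the RL level of tumor 812a, so the conditions overlapped across tumors. The change was 0.94 in tumor 811a, 0.30 in tumor 812a and 0.21 in tumor 815a. The mean was 0.48 (SE 0.13, 95% confidence interval 0.19 to 0.77, n = 3 tumors), a 1.40-fold ratio, and its adjusted p was 0.4045. The dimmer probe gave 0.83, 0.38 and 0.18 in tumors 811a, 812a and 815a, with a mean of 0.46. Both probes therefore put tumor 811a highest. Tumors 812a and 815a changed places with the processed signals (0.20 and 0.24) and without background correction (0.25 and 0.27). Without tumor 811a the mean of the brighter probe was 0.26. With each array centered on its median, the mean was 0.30 and tumor 815a turned to −0.32, against 0.29 in tumor 811a and 0.94 in tumor 812a, so that the common direction was lost. That loss is not specific to Cd47, since the setting moved the gene lists the same way. The fibroblast medians, for example, became −0.76, 0.58 and −0.56 in tumors 811a, 812a and 815a.

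The call for Cd47 changed with a dye term and without tumor 812a. When a dye term was fitted beside RL, its change was 0.44 with an adjusted p of 0.00629, and Cd47 was then 1 of 125 genes called higher (0.575% of all tested). The dye term leaves 1 residual degree of freedom, which comes from tumors 811a and 815a alone. Since only tumor 812a had RL in Cy5, the term cannot tell an effect of the dyes from a difference of that tumor. Without tumor 812a, the one array with RL in Cy5, the adjusted p of Cd47 was 0.000416, but the remaining arrays share a dye order and 1478 genes passed there. Across 21721 genes, which are not independent replicates, the changes of tumors 811a and 815a had a Pearson's r of 0.452, while tumor 812a had −0.110 with tumor 811a and −0.106 with tumor 815a.

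Promoter windows of 300 bases around the start site were matched by symbol in RefSeq (GRCm38.p6) for 8 of the 10 genes, all but Cd86 and Pvr. They were searched on both strands for the kappa B consensus, for the GAS letters TTCNNNGAA and for the ISRE letters GAAANNGAAA, the motifs of NF-κB, STAT and interferon regulatory factors. Of all 32544 promoters of this length, 8.49% held the kappa B consensus, 8.33% the GAS letters and 3.45% the ISRE letters. Among the 8 genes, Icosl and Pdcd1lg2 held the kappa B consensus, Lgals9 held the ISRE letters in 2 places, and 0 held the GAS letters. The windows of Cd47, the gene with the highest mean change, of Icosl, whose change was above 0 in each tumor, and of Cd274, which encodes PD-L1, are shown for comparison. Capitals mark a match to the kappa B consensus, which only Icosl of these held, on the minus strand from position −111 relative to the start site. A match describes these letters and is not a measured binding site.
Cd47, chr16:49855404-49855703, plus strand: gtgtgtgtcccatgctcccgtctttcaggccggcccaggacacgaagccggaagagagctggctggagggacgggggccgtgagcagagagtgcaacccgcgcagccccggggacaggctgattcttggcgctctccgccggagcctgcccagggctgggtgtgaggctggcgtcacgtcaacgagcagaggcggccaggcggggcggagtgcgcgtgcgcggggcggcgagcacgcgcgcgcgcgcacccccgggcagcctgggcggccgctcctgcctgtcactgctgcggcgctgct
Icosl, chr10:78069118-78069417, plus strand: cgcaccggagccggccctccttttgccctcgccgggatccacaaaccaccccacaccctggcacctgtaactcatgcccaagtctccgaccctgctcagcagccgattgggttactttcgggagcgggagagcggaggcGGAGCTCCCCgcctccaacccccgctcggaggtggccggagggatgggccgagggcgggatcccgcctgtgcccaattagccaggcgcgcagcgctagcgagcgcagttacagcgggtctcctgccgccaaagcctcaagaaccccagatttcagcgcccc
Cd274, chr19:29367188-29367487, plus strand: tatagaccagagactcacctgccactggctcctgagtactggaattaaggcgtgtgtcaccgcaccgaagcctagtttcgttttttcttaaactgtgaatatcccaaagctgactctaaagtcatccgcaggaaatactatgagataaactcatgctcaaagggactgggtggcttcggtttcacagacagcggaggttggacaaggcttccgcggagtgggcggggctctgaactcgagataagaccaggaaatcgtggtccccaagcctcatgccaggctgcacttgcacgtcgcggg

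**Figure D2:**
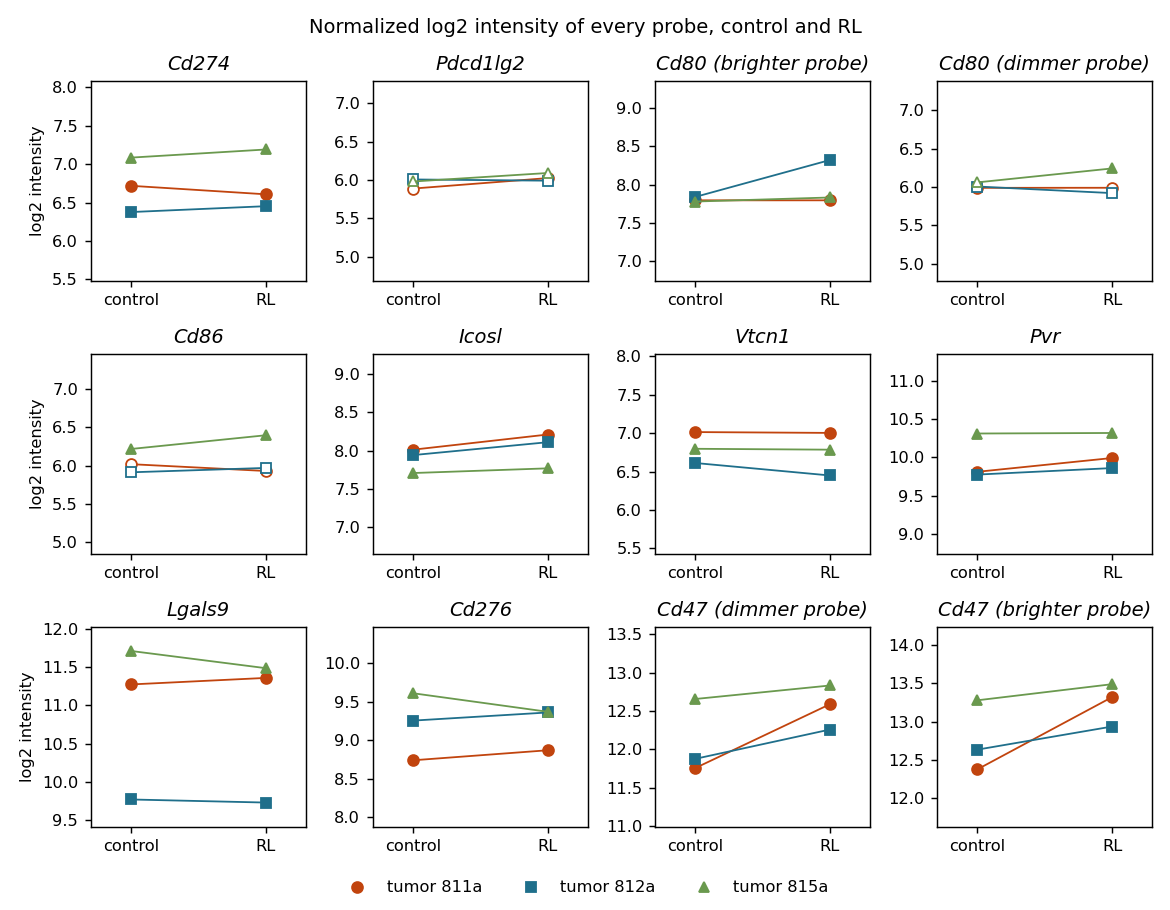
Each panel plots the normalized log2 intensity of 1 of the 12 probes in the control and the RL channel, with a line and symbol per tumor, and open symbols for channels not well above background. All panels span the same range of log2 units around their own center. The lines of both Cd47 probes slope upward from control to RL in every tumor, most steeply in tumor 811a, while the lines of Cd274, Vtcn1 and Pvr are close to flat and the symbols of Pdcd1lg2, of Cd86 in tumors 811a and 812a, and nearly all of the dimmer Cd80 probe are open.

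Cd274 encodes PD-L1, which binds PD-1 on T cells. Its probe (NM_021893) was dim, with a spot intensity in the control channel of 126 over a local background of 71 in tumor 811a, 43 over 37 in tumor 812a and 175 over 75 in tumor 815a. The control level was 6.72, 6.38 and 7.09 in tumors 811a, 812a and 815a, and the RL level was 6.61, 6.45 and 7.19. Tumor 811a lay slightly lower with RL and the other tumors slightly higher, by less than the tumors differed from each other. The change was −0.11, 0.08 and 0.11, and the mean of 0.02 had a 95% confidence interval from −0.15 to 0.19 (adjusted p = 0.965). The mean was 0.05 with an offset of 10 in place of 50 and 0.12 from the intensities that the scanner software had processed. The sign turned in some settings, to −0.08 when each array was centered on its median.

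Pdcd1lg2 encodes PD-L2, the other ligand of PD-1, which is mainly known from dendritic cells and macrophages. Its probe (NM_021396) was not well above background in any of the 6 channels. In the control channels its spot intensity was 68 in tumor 811a, 26 in tumor 812a and 69 in tumor 815a, over a local background of 72, 32 and 70. It was not tested, and no ratio is given.

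Cd80 and Cd86 encode the ligands that CD28 and CTLA4 share. Cd80 was read by a pair of probes for NM_009855, of which the dimmer was well above background in 1 of 6 channels, the RL channel of tumor 815a. The brighter probe had control levels of 7.80, 7.84 and 7.78 in tumors 811a, 812a and 815a, which lay close together, and RL levels of 7.80, 8.32 and 7.83. Only the RL channel of tumor 812a stood away from the rest, and it is also the one RL channel read in Cy5. The change was 0.48 in tumor 812a, 0.05 in tumor 815a and −0.00011 in tumor 811a. The mean was 0.18 (SE 0.10, adjusted p = 0.777), and it was 0.03 without tumor 812a and 0.12 with median centering. With the dye term the mean was 0.25 and its adjusted p was 0.0846.

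Cd86 (NM_019388) was well above background in 2 of 6 channels, the control and the RL channel of tumor 815a. Its spot intensity there was 90.5 over a local background of 75 in the control channel and 48 over 39 in the RL channel. In tumors 811a and 812a it was not well above background in either culture, and it was not tested.

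Icosl encodes the ligand of ICOS, a costimulatory receptor of activated T cells. The control level was 8.01 in tumor 811a, 7.94 in tumor 812a and 7.71 in tumor 815a, and the RL level was 8.21, 8.11 and 7.77. The RL channel was the higher one in every tumor, but by less than the gap between tumors 811a and 815a. The changes of 0.20, 0.17 and 0.06 lay close to each other and gave a mean of 0.14 (SE 0.07, 95% confidence interval −0.02 to 0.30, adjusted p = 0.738). The interval includes 0. Over all settings run its mean lay between 0.05, with each array centered on its median, and 0.18.

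Vtcn1 and Cd276 encode B7-H4 and B7-H3, members of the B7 family whose receptors on T cells are less well defined, and B7-H4 is known from mammary epithelium. Vtcn1 (NM_178594) was dim, with control levels of 7.02, 6.61 and 6.80 in tumors 811a, 812a and 815a and RL levels of 7.004, 6.45 and 6.79. Its change was −0.01 in tumors 811a and 815a and −0.16 in tumor 812a, so that all were below 0 while only 1 was further from 0 than the SE of 0.07. The mean was −0.06 (95% confidence interval −0.22 to 0.10, adjusted p = 0.901). It was −0.21 with the processed signals, where tumor 815a was above 0, −0.13 with median centering, −0.11 with an offset of 10 and −0.01 without tumor 812a. Cd276 (NM_133983) had control levels of 8.74, 9.26 and 9.61 and RL levels of 8.87, 9.36 and 9.37. It was higher with RL in tumors 811a and 812a, by 0.13 and 0.11, and lower in tumor 815a, with −0.24. The mean of −0.0017 (95% confidence interval −0.20 to 0.20, adjusted p = 0.998) therefore averages tumors of opposite sign. It became 0.12 without tumor 815a and −0.14 with median centering.

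Pvr encodes the poliovirus receptor CD155, which binds the activating receptor CD226 and the inhibitory receptor TIGIT. Its control level was 9.81, 9.78 and 10.31 in tumors 811a, 812a and 815a, and its RL level was 9.99, 9.86 and 10.32. Tumor 815a was the brightest in both conditions and had the smallest change, 0.0070, against 0.18 in tumor 811a and 0.08 in tumor 812a. The mean was 0.09 (SE 0.07, 95% confidence interval −0.07 to 0.25, adjusted p = 0.851). Without tumor 811a it was 0.05. Centering each array on its median turned it to −0.07, in a setting where the median of all genes tested was −0.11. Lgals9 encodes galectin-9, a secreted lectin and a ligand of TIM-3. Its control level was 11.27, 9.77 and 11.71 and its RL level was 11.36, 9.73 and 11.48, so that the level of tumor 812a was lower than those of the other tumors in both cultures, with the opposite dye order. The changes were 0.09, −0.04 and −0.22, of mixed sign, with a mean of −0.06 (SE 0.08, adjusted p = 0.913). The mean was −0.13 without tumor 811a, 0.02 without tumor 815a and −0.24 with median centering.

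**Figure D3:**
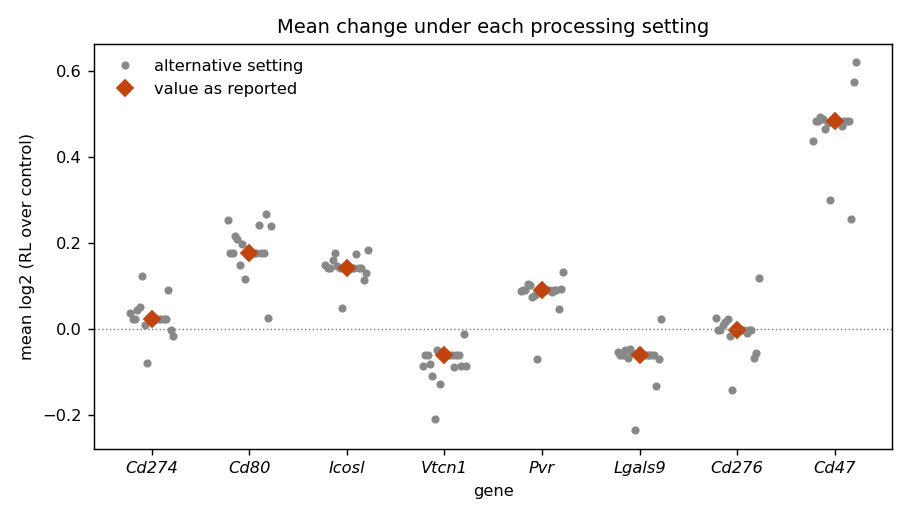
The mean log2 ratio of RL over control (vertical axis) of the 8 genes is plotted as reported (diamond) and under each alternative setting of the processing (gray points). Cd47 stays between 0.26 and 0.62, while the points of Cd274, Pvr, Lgals9 and Cd276 lie on both sides of 0.

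Tumors 811a and 815a have the same dye order, so their channels can be set side by side, with 1 array per tumor and no test. Of the 8 genes, 5 were brighter in tumor 815a in both the control and the RL channel (Cd274, Pvr, Lgals9, Cd276 and Cd47) and 2 were dimmer in both (Icosl and Vtcn1). Over all 21743 genes, 8176 were brighter and 8923 dimmer in both. Cd276 was 0.87 brighter in the control channel of tumor 815a and 0.50 brighter in its RL channel. For Cd47 the tumors differed by 0.90 in the control channels and by 0.17 in the RL channels. The control level of tumor 811a was the lower one, while the RL levels of the tumors lay close together. A ratio is the RL level minus the control level, so the gap between these differences only restates the larger ratio of tumor 811a. All 8 NF-κB targets listed were also brighter in the control of tumor 815a than of tumor 811a, with a median difference of 0.75. In the RL channels their median difference was −0.16. The same arithmetic holds for these targets, and a link of control level and response was not tested. Cell type markers also differed between the tumors. All 6 fibroblast markers listed were brighter in tumor 815a, with a median difference of 0.97 in the control and 1.22 in the RL channels. Of the 9 epithelial markers, 7 were brighter and 2 dimmer in the control of tumor 815a, with differences from −1.08 to 2.32 and a median of 0.24. Of the 10 myeloid markers, 6 were brighter and 4 dimmer there, with differences from −1.15 to 0.38 and a median of 0.09. The part of these markers in the differences of the ligands was not tested.

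**Figure D4:**
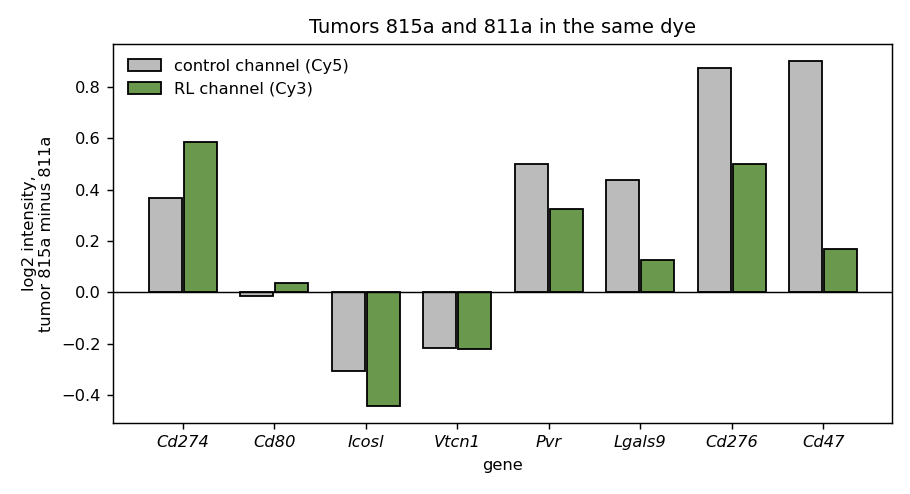
Bars give the normalized log2 intensity of tumor 815a minus that of tumor 811a for 8 genes, in the control channels (gray, Cy5 in both tumors) and the RL channels (green, Cy3 in both). For Cd47 the gray bar reaches 0.90 and the green bar 0.17, while Icosl and Vtcn1 lie below 0 in both channels. There is 1 array per tumor, so no error can be given.

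The NF-κB targets were read to describe the response to RL in the same cultures. Their list was chosen with earlier results of these data known, so its counts beside all genes are a description and not a test. All 8 genes of this list were above 0 in all 3 tumors, against 14.2% of all genes tested, but with median centering 2 of the 8 were. Their median change was 0.59, and by tumor it was 1.15 in tumor 811a, 0.45 in tumor 812a and 0.25 in tumor 815a. With median centering these medians were 0.65, 0.89 and −0.22. Traf1 and, outside the naming rule, Tnfaip3 were higher in tumor 815a than in tumor 812a. Limma called 0 of the 8 at an adjusted p of 0.05, 8 at an unadjusted p under 0.05 and 8 with the dye term, and the rank product called 4. Of all genes tested, 3.61% were higher at that unadjusted p and 0.575% with the dye term, and the rank product put 36 of 21721 higher. Nfkbia, the inhibitor of NF-κB that NF-κB itself induces, had ratios of 1.48, 0.47 and 0.38 on the log2 scale in tumors 811a, 812a and 815a. Nfkbie and Traf1, another inhibitor and an adaptor of TNF receptors, had mean changes of 0.75 and 0.70, with 1.14, 0.31 and 0.65 for Traf1 in tumors 811a, 812a and 815a. Without tumor 811a the means of Nfkbia and Nfkbie were 0.42 and 0.47. All of the 8 checkpoint genes but Cd47 had a smaller mean change than any of these targets, the lowest of which was 0.35.

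Of the partners of CD47, the receptor gene Sirpa had a mean change of 0.04 and Qpctl, the enzyme that modifies the SIRPα-binding end of CD47, had −0.10 (SE 0.07, adjusted p = 0.818) and was below 0 in all 3 tumors, though not with the processed signals, without background correction or with median centering, where its mean was −0.24. B2m, the light chain of MHC class I, had a mean of 0.14, with 0.33 in tumor 811a and 0.05 in both other tumors. Without tumor 811a its mean was 0.05, and median centering turned it to −0.08. Of the 7 genes of this axis, limma called 0 at an adjusted p of 0.05, and Cd47 alone at an unadjusted p under 0.05 and with the dye term. Of all genes tested, 3.61% were higher at that unadjusted p and 0.575% with the dye term.

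All 20 genes listed as acting on PD-L1 were tested. Of these, 7 were above 0 in all 3 tumors (35%, against 14.2% of all genes tested) and 2 below (10%, against 13.3%). This list too was chosen with earlier results of these data known, so its shares are a description and not a test. The median change was 0.07. With median centering 0 were above and 0 below in all 3, and the medians by tumor were −0.38, 0.54 and −0.40 in tumors 811a, 812a and 815a. Limma called 0 at an adjusted p of 0.05. At an unadjusted p under 0.05 it called 7 higher, against 3.61% of all genes tested, and 0 lower, against 3.56%. With the dye term it called 3 higher (Ifngr1, and Irf1 and Ptpn2, which were named after their values were seen), against 0.575% of all. The rank product called 0, against 87 of all genes tested. The receptor chains of interferon-γ, Ifngr1 and Ifngr2, had mean changes of 0.41 (SE 0.10) and 0.32 (SE 0.10), with 0.73 and 0.62 in tumor 811a. Without that tumor the means were 0.25 and 0.16, and with median centering 0.26 and 0.16. Rela, the NF-κB subunit p65, had 0.31 (SE 0.09), with 0.46 in tumor 811a, 0.03 in tumor 812a and 0.42 in tumor 815a, and 0.10 with median centering. The lowest adjusted p of Ifngr1, Ifngr2 and Rela in limma was 0.374, that of Ifngr1, and with the dye term it was 0.0130. Irf1 had the lowest adjusted p of the list in limma, 0.325, with 0.37, 0.24 and 0.29 in tumors 811a, 812a and 815a. With median centering Irf1 had −0.23, 0.86 and −0.24 in these tumors.

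Among 26 further ligands, 25 were on the array and 18 were tested. Of the 18, 3 were above 0 in all 3 tumors (16.7%) and 3 below 0 (16.7%). These shares lay near those of all genes tested, 14.2% above and 13.3% below. The median change of the 18 was −0.0089. With median centering 0 were above and 0 below in all 3, and the medians by tumor were −0.45, 0.57 and −0.53. Limma called 0 of the 18 at an adjusted p of 0.05. At an unadjusted p under 0.05 it called 1 in each direction, where 3.61% of all genes tested were higher and 3.56% lower. The ligand called lower was Vsir, which encodes VISTA, a checkpoint protein of myeloid cells and T cells. Its change was −0.56 in tumor 811a, −0.51 in tumor 812a and −0.22 in tumor 815a, a mean of −0.43 (SE 0.08, adjusted p = 0.214). With median centering tumor 812a was at 0.02, and the common direction was lost. With the dye term its mean was −0.45 and its adjusted p 0.00055. Nt5e, the enzyme CD73 that makes adenosine, had a mean change of 0.20 (SE 0.08, adjusted p = 0.641), and Hmgb1, a nuclear protein that binds TIM-3 when released, had 0.13 (SE 0.07). The mean of Nt5e was 0.13 without tumor 811a and 0.05 with median centering, and that of Hmgb1 was 0.05 with the processed signals and turned to −0.07 with median centering. The 7 that did not pass the filter for testing were Cd40, Cd70, Tnfsf4, Tnfsf14, Tnfsf18, Ido1 and Entpd1.

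Of 14 receptor genes of these ligands, 3 were tested and 11 were not, among them Pdcd1, Ctla4, Icos and Lag3, which were well above background in 0 of 6 channels. Cd28, the activating receptor of CD80 and CD86, had a mean change of −0.17 (SE 0.07, adjusted p = 0.699), with −0.13, −0.07 and −0.30 in tumors 811a, 812a and 815a. Its mean was −0.45 with the processed signals, −0.30 with an offset of 10 and with the authors' table of log2 ratios, and −0.10 without tumor 815a. Limma called 0 of the 3 at an unadjusted p under 0.05.

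**Figure D5:**
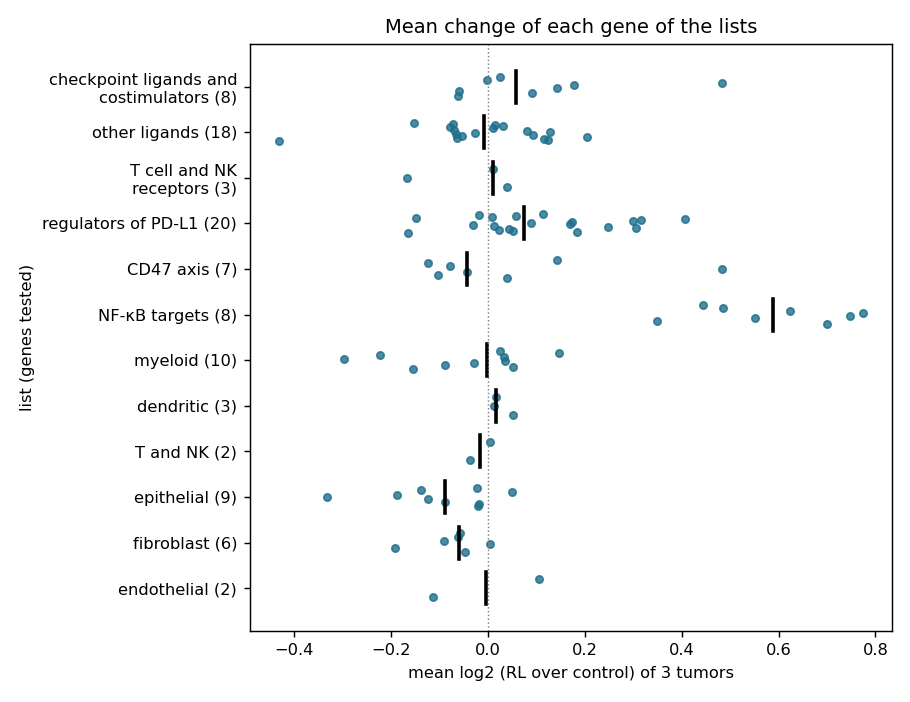
Each point is the mean log2 ratio of RL over control (horizontal axis) of a gene well above background, grouped by list, with the number of genes tested in brackets. Black bars are the medians of the lists and the dotted line is the median of all genes tested. The NF-κB targets lie between 0.35 and 0.77, and Cd47 at 0.48 lies within that range.

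Cell type markers were read to describe the cultures. All 9 epithelial markers passed the filter for testing, and so did 10 of the 10 myeloid markers on the array, 6 of 6 fibroblast markers and 2 of 5 endothelial ones. For T and NK cells it was 2 of 8 markers, Cd3e and Cd4, while Cd3d, Cd3g, Cd8a, Cd8b1, Ncr1 and Cd2 were well above background in 0 of 6 channels, as were all 4 B cell markers. Of 7 dendritic cell markers, 3 passed it and Itgax, Flt3, Xcr1 and Clec9a did not.

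With RL, the median change was −0.0017 for the myeloid markers, −0.09 for the epithelial, −0.06 for the fibroblast, 0.02 for the dendritic, −0.02 for the T and NK and −0.0040 for the endothelial markers. By tumor the epithelial median was 0.15, −0.18 and −0.07 and the fibroblast median −0.30, 0.17 and −0.05 in tumors 811a, 812a and 815a. In tumor 811a, where Cd47 and the NF-κB targets had their highest ratios, the fibroblast median was thus below 0 and the epithelial one above 0, and their part in those ratios was not tested. With median centering 0 markers of any cell type kept a common sign. Limma called 0 markers at an adjusted p of 0.05. Of the 10 myeloid markers, 5 had a mean above 0, the highest 0.15, and 5 a mean below 0. Their change was below 0 in all 3 tumors for 3 of the 10, against 13.3% of all genes tested. Of these 3 markers, 2 passed an unadjusted p under 0.05, where 774 of all genes were lower (3.56%). Fcer1g, the signaling chain of Fc receptors, had the lowest mean, −0.30 (SE 0.07), with an adjusted p of 0.369, and of 0.0391 with the dye term. Cd68 had −0.22 and Tyrobp −0.16, and −0.39 and −0.32 with median centering, where all 3 were above 0 in tumor 812a. The part of these markers in the change of Vsir was not tested. Of the fibroblast markers, Pdgfra had a mean of −0.19 and passed an unadjusted p under 0.05. Its change was −0.38, −0.15 and −0.04 in tumors 811a, 812a and 815a, and its mean −0.10 without tumor 811a. Of the epithelial markers, Elf5, a regulator of alveolar cells, was below 0 in all 3 tumors with a mean of −0.14. With median centering the mean was −0.35 but tumor 812a was at 0.50, and without background correction tumor 815a was at 0.01. Zbtb46, a dendritic cell factor, had 0.05, and 0.11 with the processed signals, 0.09 with an offset of 10 and 0.02 as the mean over its probes.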

How the data were processed

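Per the file headers, the authors deposited median spot and local background intensities that Agilent Feature Extraction 10.7.3.1 had read from the arrays, with no correction, and processed intensities that it had background-subtracted, detrended and dye-normalized. The sample titles name the control first for tumors 811a and 815a and RL first for tumor 812a. The methods describe log2 ratios of a condition over its control. The table of log2 ratios from the authors itself names no direction. Spot by spot, without outliers, it followed the Cy5 over Cy3 ratios normalized here (Pearson's r 0.881, 0.874 and 0.880, slopes 1.40, 1.59 and 1.50 in tumors 811a, 812a and 815a), so its sign was turned for tumors 811a and 815a. The step that gave slopes above 1 is not known.

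All values came from R 4.3.3 and limma 3.58.1. Normexp with an offset of 50 was run on every spot, and control spots were then removed. Log2 ratios were normalized by intensity loess and by a loess over spot positions with a span of 0.1, followed by Aquantile between arrays. Outlier spots were left out (204, 195 and 223 of 59305). Probe accessions were matched to RefSeq symbols (28026 of 55681 probes), and the brightest probe that passed the filter represented its gene. The fit by lmFit and eBayes had 2 residual and 6.90 prior degrees of freedom, and Benjamini-Hochberg adjustment ran over all 21743 genes. The ratio itself pairs both cultures of a tumor.

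Alternatives changed the dye term, eBayes moderation, background correction, input signals, normalization, filter, probe summary or pairing, or used the authors' log2 table, a rank product with 1000 permutations or fewer tumors. From each list, genes past the adjusted p were named, and otherwise the 3 with the largest mean change of the same sign in all 3 tumors. Irf1, Ptpn2, Tnfaip3 and Sirpa lie outside this rule. The members and lists were chosen with earlier results of these data known.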

Additional observations from a re-analysis of the deposited data

How the results depend on the processing

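Of 152 values of the 8 checkpoint genes under the alternatives, 140 kept their direction and their side of the threshold, 2 passed it (both Cd47) and 10 changed sign. Cd47, Cd80 and Icosl stayed above 0 and Vtcn1 below 0 in all settings run. With the dye term, 1 checkpoint gene, 296 of all genes and 13 genes of the related lists passed the threshold, where 0, 6 and 0 are reported. The rank product gave 4 list genes and 87 of all genes. All genes past the threshold numbered 34 with an intensity trend, 19 with robust moderation, 18 without background correction, 17 with an offset of 10, 3 without a filter, and 0 with the processed signals, with median centering and without the replicate block, that is with unpaired channels. Leaving out 1 tumor each gave 2 to 1478 of all genes, 0 to 18 list genes and 0 to 1 checkpoint gene past the threshold, all highest without tumor 812a. It gave 3 to 5 checkpoint genes above 0 in each remaining tumor and a median change of 0.012 to 0.125. The count above 0 in all 3 tumors was 1 with the processed signals and 0 with median centering, which moved the median of the checkpoint genes to −0.074 and that of all genes to −0.111. Median centering turned Cd274 to −0.078, Pvr to −0.070, Hmgb1 to −0.075, B2m to −0.081 and Zbtb46 to −0.0017. Cd276 turned to 0.025 with the dye term, 0.0094 without background correction, 0.015 with an offset of 10 and 0.024 with the processed signals, and it was −0.068 to 0.118 with 1 tumor left out and −0.143 with median centering. With 1 tumor left out, Cd274 was −0.017 to 0.091, with −0.0025 without tumor 812a, and Lgals9 was −0.132 to 0.022. The low signal over background of Cd274 and Vtcn1 limits their ratios, and the cause of these changes was not tested.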
